A study of Mus musculus with 5 samples.

Results

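Growth factors and their receptor tyrosine kinases were examined in the lungs of mice of the inbred strain 129svJ treated with bleomycin, an antibiotic that breaks DNA and injures the lung. Genes were taken by symbol from the platform annotation. The rule sought the fibroblast (Fgf), platelet-derived (Pdgf), vascular endothelial (Vegf), insulin-like (Igf) and epidermal (Egf, Ereg, Areg, Hbegf) growth factor names. It also sought Hgf and Met, the angiopoietins, the Erbb receptors and the neuregulins. Areg had no matching symbol, and the Erbb receptors and neuregulins were represented by Erbb4, Nrg3 and Nrg4 only. The rule matched 75 symbols on 77 features, and 50 of them had values on at least 4 of the 5 arrays. These 50 stand among 9039 named genes, and 10081 genes and unnamed features, measured in the same way. Of the other 25, 13 had no value on any array, among them the receptors Egfr, Fgfr1, Fgfr2 and Met, and 12 had values on 1 to 3 arrays.

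Each of the 5 arrays carried amplified lung RNA of 1 bleomycin-treated 129svJ mouse in channel 1 and a pool of amplified lung RNA from control 129svJ mice in channel 2. The 5 mice form 1 group, and the pool was shared by all arrays. Dose, route, time, age and sex of the mice, the dyes and the number of mice in the pool are not stated in the labels. Arrays held values for 11350 to 12083 of 17280 features, their deposited medians lay between 0.011 and 0.026, and Pearson's r across genes was 0.732 to 0.857 for the array pairs, which share the pool.

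Values are log2 ratios of the channels, centred on each array's median. The labels name the bleomycin mouse before the pool, but no source states which channel stands on top of the ratio. The direction is therefore unsettled, so only the size of a difference and its side of 0 are given. Folds assume log2, which no source states. In whole lung, more cells of a type and more RNA per cell cannot be told apart. Markers of lung cells were among the measured genes, and some lists lay on 1 side of 0 while others lay on both. The 14 endothelial markers ran from 0.10 to 2.45 and the 10 skeletal muscle markers from −3.74 to −0.74. The 8 fibroblast markers ran from −1.29 to 1.93. Of 8 type 2 alveolar markers, surfactant protein A, Sftpa1, lay farthest above 0 at 2.41 ± 0.30 (SD, n = 5 mice), while surfactant protein D, Sftpd, stood at 0.14 and surfactant protein C, Sftpc, at −0.27.

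Growth factors are secreted proteins that bind receptor tyrosine kinases on the cell surface. Binding pairs the receptors, which phosphorylate each other and recruit adaptor proteins that lead to the MAP kinase and PI3 kinase pathways. In lung these ligands pass between epithelium, endothelium, fibroblasts and macrophages during development and repair, and binding proteins, heparan sulfate and decoy receptors limit how much ligand reaches a receptor.

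Igf1, Ereg, Fgf13 and Hbegf lay far below 0, and Igfbp5, Igf1r, Fgf7 and Fgfbp1 far above it, in every mouse with a value. The ratio was tested against 0 with limma, and an adjusted p under 0.05 over all 10081 genes and features is called past the threshold. Of the 50 measured members 31 passed, 15 below 0 and 16 above 0, which is 62%. Over all genes and features 49.6% passed, 23.9% below 0 and 25.8% above 0. For 30 of the 31, every array with a value lay on the same side, as for 4734 of the 5002 genes and features that passed. The median size of the members' log2 ratios was 0.29, against 0.21 over all genes and features, and the median SD between mice was 0.20, against 0.16.

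Fewer members passed under stricter criteria. At least 2-fold differences past the threshold were found for 5 members (Igf1, Igfbp5, Ereg, Igf1r and Fgf13), against 5.59% of all genes and features. Against a least difference of 1.2-fold, 14 passed, 7 on each side, against 18.3%. When the pool was counted as 1 control mouse that varies like the treated mice, 5 of the 50 passed (10%), against 5.09%. These were Igf1, Ereg, Fgf13 and Hbegf below 0 and Fgfbp1 above 0.

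**Figure D1:**
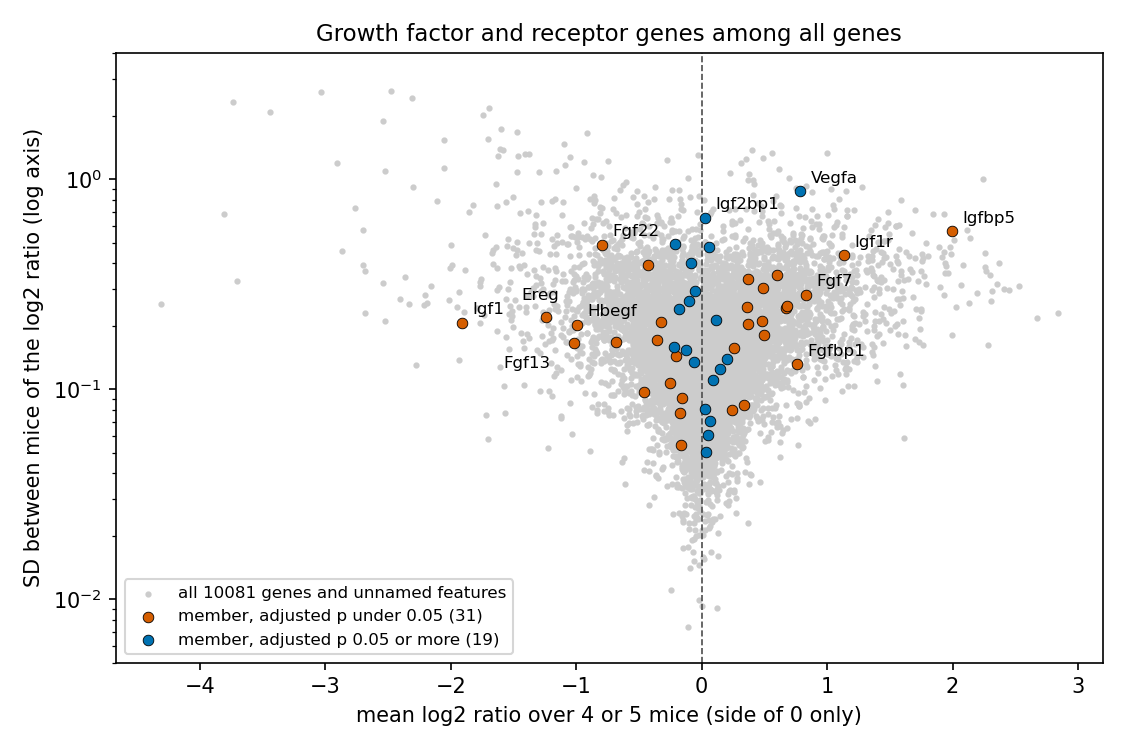
Mean log2 ratio (horizontal) and SD between mice (vertical, log axis) of the 31 members past the threshold (orange) and the 19 not past it (blue), over all 10081 genes and unnamed features (grey). Igf1 at −1.91 and Igfbp5 at 1.99 are the outermost of the 50 members, while Vegfa at 0.78 has the widest spread of the members, with an SD of 0.88.

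Among the 50 members, the insulin-like growth factor system held the largest ratio on each side. Igf1, the ligand made in lung by fibroblasts and macrophages that drives growth and survival, was far below 0, while its receptor Igf1r and its binding protein Igfbp5 were far above 0. Of 11 measured members of the family, 3 passed the threshold below 0, 6 passed above 0 and 2 did not pass, beside 23.9% below and 25.8% above over all genes and features. The 5 binding proteins past the threshold lay above 0 except Igfbp7.

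The annotated promoters of these 3 genes are shown because their ratios lay farthest from 0 within the family and on opposite sides. They come from RefSeq on GRCm38.p6 and run from 250 bases before to 50 after the annotated start, 5′ to 3′ on the gene's strand. Of 50 measured members, 39 had an entry. Igf1 is at chr10:87860861-87861160 (plus strand), Igf1r at chr7:67952007-67952306 (plus strand) and Igfbp5 at chr1:72874816-72875115 (minus strand). Capitals mark any match, on either strand, to the TATA box TATAAA, the GC box GGGCGG, the CCAAT box CCAAT, the AP-1 motif TGANTCA or the E-box CACGTG.
Igf1: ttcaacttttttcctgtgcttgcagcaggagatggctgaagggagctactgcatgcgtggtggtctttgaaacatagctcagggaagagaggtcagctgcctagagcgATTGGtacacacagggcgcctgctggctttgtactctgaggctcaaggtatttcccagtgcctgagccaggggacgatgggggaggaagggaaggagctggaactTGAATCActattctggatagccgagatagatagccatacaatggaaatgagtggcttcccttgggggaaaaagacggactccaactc
Igf1r: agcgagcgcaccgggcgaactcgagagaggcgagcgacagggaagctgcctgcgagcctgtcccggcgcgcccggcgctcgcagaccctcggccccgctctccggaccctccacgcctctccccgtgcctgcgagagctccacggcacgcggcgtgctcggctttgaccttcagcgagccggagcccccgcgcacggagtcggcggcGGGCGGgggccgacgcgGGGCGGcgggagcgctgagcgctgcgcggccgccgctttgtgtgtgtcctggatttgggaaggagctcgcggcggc
Igfbp5: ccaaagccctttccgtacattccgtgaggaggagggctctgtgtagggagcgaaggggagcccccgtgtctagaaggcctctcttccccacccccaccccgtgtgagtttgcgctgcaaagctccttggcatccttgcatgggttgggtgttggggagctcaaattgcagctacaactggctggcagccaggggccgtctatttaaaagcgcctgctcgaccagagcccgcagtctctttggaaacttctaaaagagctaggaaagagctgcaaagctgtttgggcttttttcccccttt

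The Igf1 window held a CCAAT box on the opposite strand, whose match begins at position −142 from the start site, and an AP-1 match beginning at position −37. Of all 32851 promoter entries, 37.4% held the CCAAT box and 7.81% the AP-1 motif. The Igf1r window held 2 GC boxes, beginning at positions −43 and −26, a motif found in 35.7% of entries. Its GC content was 76%, against 52.3% for Igf1 and 56.3% for Igfbp5, with a median of 52.7% over all entries. The Igfbp5 window held none of the 5 motifs. TATAAA was in 13.6% of entries and CACGTG in 7.15%. These matches describe the letters and show no binding.

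Igf1 stood at −1.62, −2.13, −1.955, −2.07 and −1.79 in mice 1 to 5. All values lay below −1.6 and within 0.6 of each other. The mean was −1.91 ± 0.21 (SD, n = 5 mice; a 3.77-fold difference, limma adjusted p = 2.16e-05, and adjusted p = 0.00977 when the pool stood for 1 control mouse). Its size exceeded that of 99.3% of all genes and features. Igf2, the second ligand of the family, abundant in fetal tissues, stood at 0.23, 0.03, 0.47, 0.28 and 0.27, above 0 in 5 of 5 mice. Its mean of 0.26 ± 0.16 (adjusted p = 0.0192) was small beside that of Igf1, and the call was lost without mouse 3, 4 or 5 (highest adjusted p = 0.0557).

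Igf1r, the receptor tyrosine kinase for both ligands, stood at 1.77, 0.58, 1.025, 1.28 and 1.04 in mice 1 to 5. Every mouse lay above 0, with mouse 1 highest and mouse 2 lowest. The mean was 1.14 ± 0.43 (SD, n = 5; a 2.20-fold difference, limma adjusted p = 0.00109, but adjusted p = 0.143 when the pool stood for 1 control mouse). These values come from 1 feature, and a further Igf1r feature had a value on 1 array only, 0.24 in mouse 4. Igf2r, a receptor without kinase that carries Igf2 to lysosomes, lay on the other side at −0.47, −0.49, −0.405, −0.34 and −0.60. Its values were close together, and the mean was −0.46 ± 0.10 (adjusted p = 0.000673).

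Among the binding proteins, Igfbp5, which holds IGFs in the matrix and is secreted by fibroblasts and smooth muscle, stood at 2.44, 2.40, 1.91 and 1.23 in mice 1, 2, 4 and 5, with no value in mouse 3. All 4 lay above 1.2. The mean was 1.99 ± 0.56 (SD, n = 4 mice; a 3.98-fold difference, limma adjusted p = 0.000677, but adjusted p = 0.0709 when the pool stood for 1 control mouse). Igfbp3, the main carrier of IGFs in blood, stood at 0.69, 0.65, 1.085, 0.42 and 0.55, with a mean of 0.68 ± 0.25 (adjusted p = 0.00127). Igfbp6, which prefers Igf2, stood at 1.02, 0.17, 0.66 and 0.54 in mice 1, 2, 4 and 5, with a mean of 0.60 ± 0.35 (adjusted p = 0.0125). Both lay above 0 in every mouse with a value.

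Igfbp4, another IGF carrier, averaged 0.36 ± 0.25 (limma adjusted p = 0.0169) and was above 0 in 5 of 5 mice, with mouse 4 at 0.79 and the others between 0.21 and 0.36. Igfbp7, a secreted protein of vessels that binds IGFs weakly, went the other way. It averaged −0.43 ± 0.39 (adjusted p = 0.0369), with mouse 1 at 0.08 and mouse 5 at −0.94. That call was lost without mouse 2, 3, 4 or 5 (highest adjusted p = 0.106). Igfbp2 and Igfals, the acid-labile subunit that forms a complex with Igfbp3, did not pass, at 0.20 (adjusted p = 0.0587) and 0.09 (adjusted p = 0.239). Without mouse 3, which lay at −0.004 for Igfbp2, Igfbp2 passed with a mean of 0.27 (adjusted p = 0.0292).

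**Figure D2:**
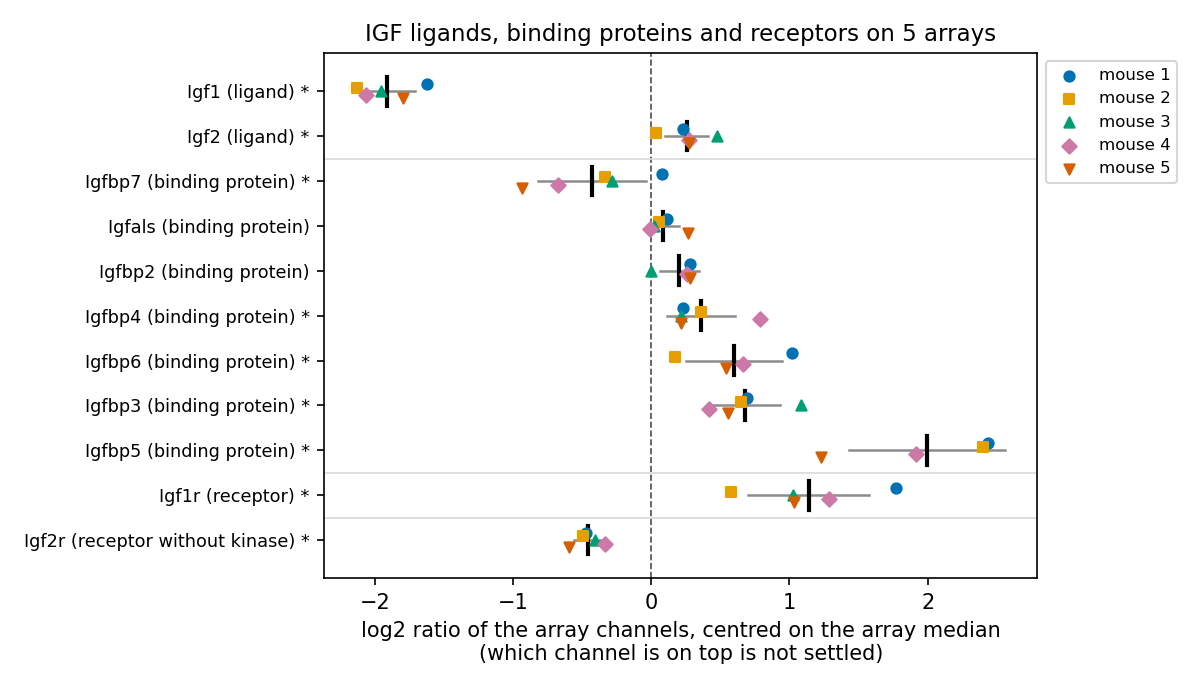
Log2 ratio of each mouse (coloured symbols) for the 11 measured IGF family members, with the mean (black bar), 1 SD between mice to each side (grey line) and an asterisk for members past the threshold. Igf1 lies below −1.6 in every mouse, whereas Igfbp5 and Igf1r lie above 0.5 in every mouse with a value.

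Macrophage and fibroblast markers were read beside Igf1, which both cell types are known to make. Of 10 measured macrophage markers 8 passed the threshold below 0, 1 passed above 0 and 1 did not pass, with a list mean between −1.50 and −0.90 over the mice. The complement component C1qb was lowest at −2.68 ± 0.23 (SD, n = 5), and the mannose receptor Mrc1 stood above 0 at 0.58 ± 0.28 (n = 4). Of 8 fibroblast markers, Pdgfra among them, 3 passed the threshold below 0, 3 passed above 0 and 2 did not pass, with a list mean between 0.22 and 0.47. Beside both lists, 23.9% of all genes and features passed below 0 and 25.8% above 0. Collagen Col3a1 stood at −1.29 ± 0.15 and the proteoglycan decorin, Dcn, at 1.93 ± 0.45. The part of these cells in the IGF values was not tested.

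In the epidermal growth factor family, the ligands Ereg and Hbegf lay below 0 in every mouse, and the other measured members did not pass. These ligands are made as membrane proteins, released by proteases, and bind the receptors Egfr and Erbb4. Of 5 measured members 2 passed the threshold below 0, 0 passed above 0 and 3 did not pass, a share of 40% against 49.6% of all genes and features. Egfr, their main receptor, had no value on any array.

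Ereg, epiregulin, stood at −1.30, −1.01, −1.565, −1.28 and −1.05 in mice 1 to 5. All values were below −1, and mouse 3 was lowest. The mean was −1.24 ± 0.22 (SD, n = 5; a 2.36-fold difference, limma adjusted p = 7.65e-05, and adjusted p = 0.0251 when the pool stood for 1 control mouse). Hbegf, the heparin-binding ligand that is known from macrophages and stressed epithelium, stood at −1.23, −0.74, −0.88, −1.17 and −0.95. Every mouse again lay below 0, and mouse 2 was nearest to it. The mean was −0.99 ± 0.20 (a 1.99-fold difference, adjusted p = 0.000143, and adjusted p = 0.0398 when the pool stood for 1 control mouse).

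Of the macrophage markers given beside Igf1, 8 of 10 passed on the same side as Hbegf, against 23.9% of all genes and features. The part of macrophages in the Hbegf values was not tested. Erbb4, the receptor for both ligands and for neuregulins, stood at 0.03, −0.004, −0.26 and −0.01 in mice 1, 2, 4 and 5. Only mouse 4 lay away from 0. The mean was −0.06 ± 0.14 (n = 4; adjusted p = 0.509, 95% interval −0.24 to 0.11). Egf itself averaged −0.18 ± 0.24 (adjusted p = 0.141) and the neuregulin Nrg4, a ligand of Erbb4, −0.06 ± 0.30 (adjusted p = 0.687). Without mouse 3, the only one above 0, Egf passed with a mean of −0.26 (adjusted p = 0.0497). Among further ligands of these receptors, epigen, Epgn, was past the threshold at −0.30 ± 0.17 (adjusted p = 0.0129), and Tgfa, transforming growth factor alpha, stood at −0.02 ± 0.07 (adjusted p = 0.799).

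Fibroblast growth factors lay on both sides of 0, as did all genes. Secreted members bind Fgfr1 to Fgfr4 together with heparan sulfate, whereas Fgf11 to Fgf14 stay in the cell and are known as partners of sodium channels. Of 17 measured members of the family, 6 passed the threshold below 0, 5 passed above 0 and 6 did not pass, beside 49.6% of all genes and features that passed. Of the 11 measured secreted ligands, 3 passed on each side and 5 did not pass.

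Fgf7, keratinocyte growth factor, is made by fibroblasts and acts on epithelium through Fgfr2. It stood at 0.42, 0.90, 1.015, 1.13 and 0.69 in mice 1 to 5. All mice lay above 0, mouse 1 being lowest. The mean was 0.83 ± 0.28 (SD, n = 5; a 1.78-fold difference, limma adjusted p = 0.000842, but adjusted p = 0.124 when the pool stood for 1 control mouse). Its receptor Fgfr2 had no value on any array. Fgfbp1, which frees FGFs from heparan sulfate, lay on the same side at 0.56, 0.92, 0.79, 0.79 and 0.74. All mice lay above 0.5, and the mean was 0.76 ± 0.13 (adjusted p = 0.000143), and the call held when the pool stood for 1 control mouse (adjusted p = 0.0398).

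Fgf22, a relative of Fgf7 that also binds Fgfr2, lay opposite. It stood at −1.52, −0.19, −0.59, −0.73 and −0.95 in mice 1 to 5. The mice ranged widely below 0, with mouse 1 lowest and mouse 2 near 0. The mean was −0.80 ± 0.49 (n = 5; a 1.74-fold difference, limma adjusted p = 0.00783, but adjusted p = 0.330 when the pool stood for 1 control mouse). Fgf1, the acidic FGF that binds every Fgfr, stood at 1.00, 0.39, 0.46, 0.385 and 0.20, above 0 in 5 of 5 mice. Its mean was 0.49 ± 0.30 (adjusted p = 0.0102), and mouse 1 was highest.

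Fgf5, known as a regulator of the hair cycle, averaged 0.48 ± 0.21 (limma adjusted p = 0.00339) and was above 0 in 5 of 5 mice. Fgf6, known from muscle, averaged −0.25 ± 0.11 (adjusted p = 0.0100) and Fgf8, an embryonic patterning ligand, −0.18 ± 0.08 (adjusted p = 0.0262), each below 0 in 5 of 5 mice. The Fgf8 call was lost without mouse 2, 3, 4 or 5 (highest adjusted p = 0.0788). Fgf4, Fgf16, Fgf18, Fgf20 and Fgf23 did not pass, with means from −0.22 to 0.07. Of these Fgf16 varied most between mice, with an SD of 0.49.

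Among the intracellular homologues, Fgf13 stood far below 0 at −0.82, −1.21, −1.105, −1.07 and −0.87 in mice 1 to 5. All mice lay within 0.4 of each other. The mean was −1.01 ± 0.17 (SD, n = 5; a 2.02-fold difference, limma adjusted p = 7.7e-05, and adjusted p = 0.0252 when the pool stood for 1 control mouse). Fgf12 averaged −0.16 ± 0.05 (adjusted p = 0.0270), a call lost without mouse 1, 2, 3 or 5 (highest adjusted p = 0.0773). Fgf11 did not pass, at 0.03 ± 0.08 (n = 4; adjusted p = 0.727).

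Of the receptors, Fgfr3, a kinase known from cartilage and alveolar development, averaged 0.37 ± 0.20 (n = 5; limma adjusted p = 0.00911) and was above 0 in every mouse. Fgfrl1, which binds FGFs but lacks a kinase, averaged −0.32 ± 0.21 (adjusted p = 0.0168). It lay below 0 in every mouse, with mouse 5 at −0.69 and the others between −0.28 and −0.15.

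**Figure D3:**
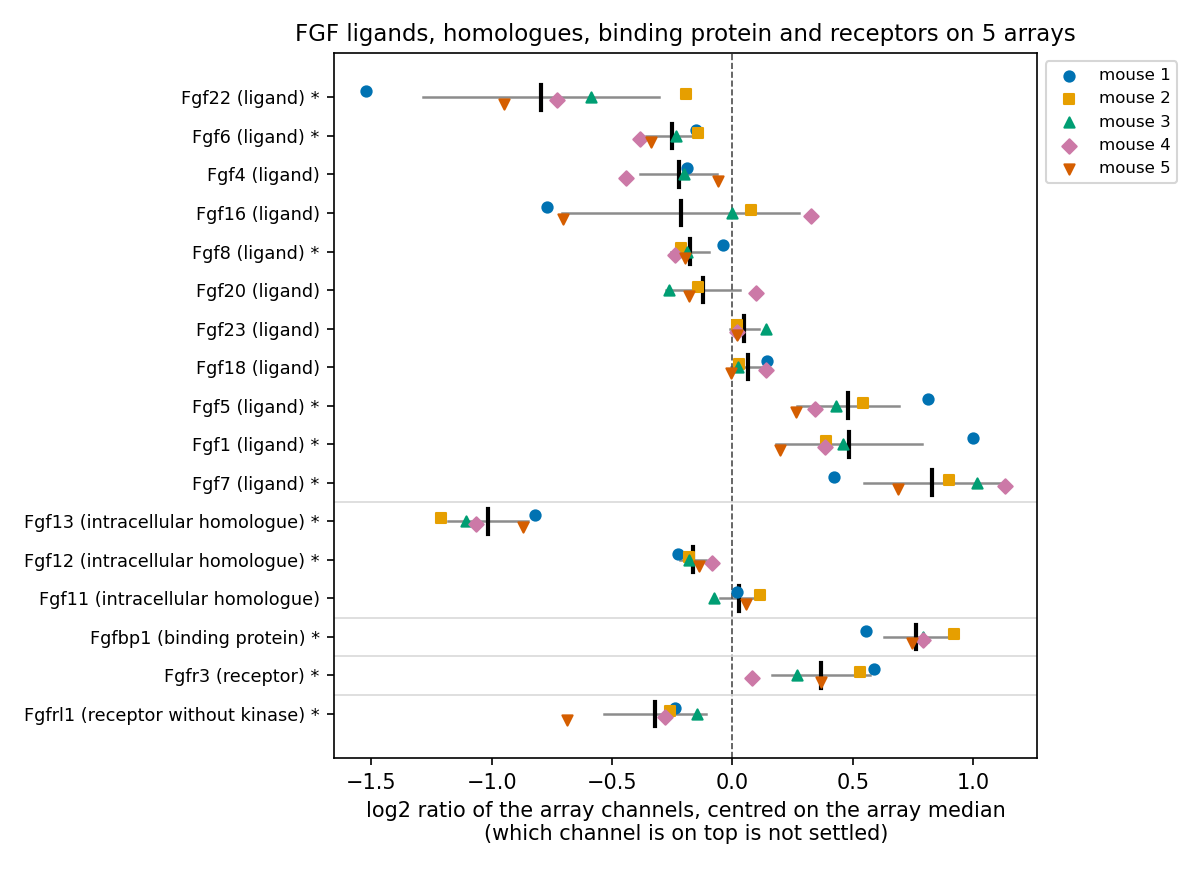
Log2 ratio of each mouse (coloured symbols) for the 17 measured FGF family members, grouped by role, with the mean (black bar), 1 SD between mice to each side (grey line) and an asterisk for members past the threshold. Fgf13 lies below −0.8 and Fgfbp1 above 0.5 in all 5 mice, while Fgf22 spans −1.52 to −0.19.

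Platelet-derived growth factors act on fibroblasts, pericytes and smooth muscle through Pdgfra and Pdgfrb. Of 5 measured members, Pdgfc, Pdgfra and Pdgfrb were past the threshold below 0, Pdgfrl above 0, and Pdgfa did not pass. Among all genes and features 49.6% passed, 23.9% below 0 and 25.8% above 0. Pdgfc, a ligand of Pdgfra that is activated by proteolysis, stood at −0.90, −0.47, −0.72, −0.76 and −0.56 in mice 1 to 5. All 5 lay below −0.4, and mouse 1 was lowest. The mean was −0.68 ± 0.17 (SD, n = 5; a 1.60-fold difference, limma adjusted p = 0.000397, but adjusted p = 0.0803 when the pool stood for 1 control mouse).

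Its receptor Pdgfra, a marker of lung fibroblasts, lay on the same side at −0.29, −0.09, −0.48, −0.52 and −0.39. The mean was smaller, −0.35 ± 0.17 (limma adjusted p = 0.00675), and mouse 2 was nearest to 0 for both genes. Pdgfrb, the receptor of pericytes, averaged −0.21 ± 0.14 (adjusted p = 0.0357), and its call was lost without mouse 2, 3 or 4 (highest adjusted p = 0.107). Pdgfrl, a secreted protein that resembles the outer part of the receptors, averaged 0.50 ± 0.18 (adjusted p = 0.00180) and was above 0 in 5 of 5 mice. Pdgfa, the ligand that drives formation of alveolar myofibroblasts, stood at 0.15 ± 0.12 (n = 4; adjusted p = 0.127). Of 7 measured pericyte and smooth muscle markers, Pdgfrb among them, 3 passed the threshold below 0, 2 passed above 0 and 2 did not pass, with a list mean from −0.35 to 0.08 over the mice. The shares over all genes and features were 23.9% below and 25.8% above 0.

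None of the 4 vascular endothelial growth factors passed in limma with adjustment over all genes and features. Vegfa alone was under 0.05 before adjustment (limma, unadjusted p = 0.0344). Vegfa, made by alveolar epithelium and needed to maintain lung capillaries, stood at 1.84, 0.77, −0.57, 0.72 and 1.17 in mice 1 to 5. It lay above 0 in 4 mice and below 0 in mouse 3. The mean was 0.78 ± 0.88 (n = 5; adjusted p = 0.0646, 95% interval 0.08 to 1.49), and without mouse 3 it was 1.12 (adjusted p = 0.00654). With the arrays scaled to equal spread, Vegfa also passed (limma adjusted p = 0.0475).

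Alveolar markers were read beside Vegfa. The list mean of 8 type 2 alveolar markers was 1.12, 0.54, 0.36, 0.85 and 1.01 in mice 1 to 5, highest in mouse 1 and lowest in mouse 3, as for Vegfa. Of these markers 4 passed the threshold above 0, 0 passed below 0 and 4 did not pass. Among all genes and features 25.8% passed above 0 and 23.9% below 0. Sftpc, a type 2 marker that did not pass, stood at −2.275 in mouse 3 and between −0.375 and 1.03 in the others. The place of mouse 3 as lowest depends on Sftpc. Slc34a2 had no value in mouse 2 and stood between 1.38 and 2.18 in the others, so the list means do not cover the same genes. Of 9 type 1 alveolar markers 6 passed above 0, 0 passed below 0 and 3 did not pass, and the list mean ran from 0.63 in mouse 2 to 1.22 in mouse 1. Their part in the Vegfa values was not tested.

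Vegfb, known for lipid uptake in endothelium, stood at −0.08 ± 0.40 (adjusted p = 0.653). The lymphatic ligands Vegfc and Vegfd stood at −0.10 ± 0.26 (adjusted p = 0.439) and 0.12 ± 0.21 (adjusted p = 0.286). Angpt2, the angiopoietin that opposes Tek signalling in most settings, was above 0 in 5 of 5 mice, with mouse 3 at 0.94 and the others between 0.09 and 0.34. Its mean was 0.37 ± 0.34 (limma adjusted p = 0.0400), and 0.23 without mouse 3, where the call held. The call was lost without mouse 1, 2 or 5 (highest adjusted p = 0.0843). Angptl4, a secreted inhibitor of lipoprotein lipase named for its likeness to angiopoietins, stood at 0.04 ± 0.05 (n = 4; adjusted p = 0.621).

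Receptors for these vascular ligands, which the symbol rule did not take, lay on both sides. Tek, the angiopoietin receptor, stood at 1.73, 1.28, 1.425, 1.41 and 1.84 in mice 1 to 5, all far above 0. Its mean was 1.54 ± 0.24 (limma adjusted p = 4.23e-05). Flt1, a VEGF receptor that also acts as a decoy, averaged 0.80 ± 0.44 (adjusted p = 0.00497), and Flt4, the receptor of lymphatic endothelium, −0.54 ± 0.13 (adjusted p = 0.000633). Placental growth factor, Pgf, which binds Flt1, stood at −1.43 ± 0.17 (adjusted p = 2.8e-05), opposite to its receptor. Of 14 endothelial markers, Tek, Flt1 and Tie1 among them, 11 passed the threshold above 0, 0 passed below 0 and 3 did not pass. Beside them, 25.8% of all genes and features passed above 0 and 23.9% below 0. The list mean ran from 0.91 to 1.13 over the mice. The part of endothelial cells in the receptor values was not tested.

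Hgf, hepatocyte growth factor, made by mesenchyme for epithelium, averaged 0.24 ± 0.08 (limma adjusted p = 0.00781) and was above 0 in 5 of 5 mice. Its receptor Met had no value on any array. Of 8 symbols taken by name only, whose products are no ligands or receptors of these families, 5 were measured. Egfl6, a matrix protein with EGF repeats, stood at 0.73, 0.24, 0.75, 0.80 and 0.84, with mouse 2 apart from the rest. Its mean was 0.67 ± 0.24 (adjusted p = 0.00126). Fgfr1op2, a cytoskeletal protein, averaged 0.34 ± 0.08 (adjusted p = 0.00200). A further Fgfr1op2 feature had a value on 1 array only, −0.05 in mouse 2, where the feature used stood at 0.27. Egfem1 averaged −0.16 ± 0.09 (adjusted p = 0.0459), and its call was lost without mouse 2, 3, 4 or 5 (highest adjusted p = 0.127). The RNA-binding protein Igf2bp1 and the neuronal protein neurogranin, Nrgn, did not pass, at 0.02 ± 0.66 and 0.06 ± 0.48.

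**Figure D4:**
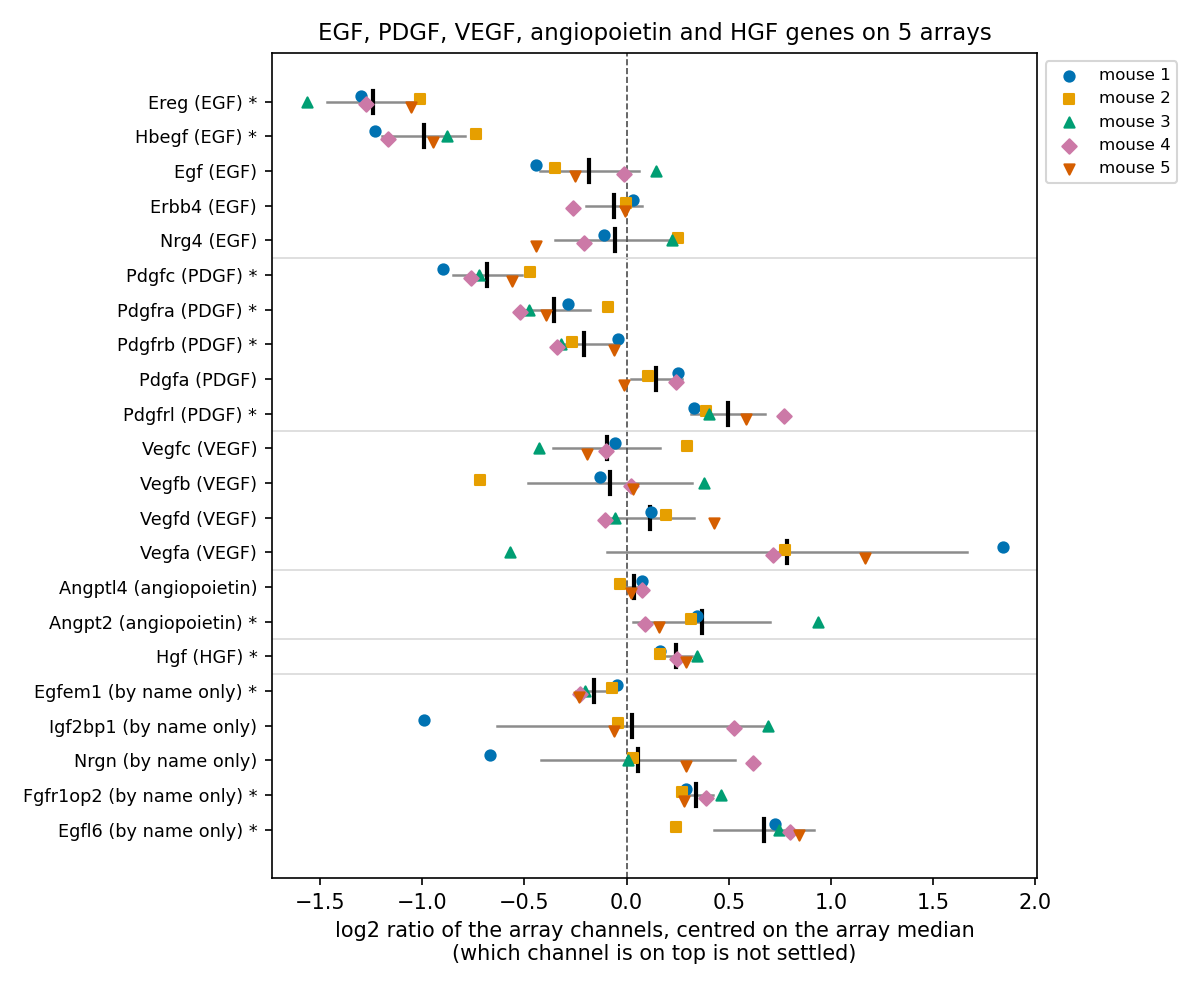
Log2 ratio of each mouse (coloured symbols) for measured EGF, PDGF, VEGF, angiopoietin and HGF members and for symbols taken by name only, with the mean (black bar), 1 SD between mice to each side (grey line) and an asterisk for members past the threshold. Ereg lies below −1 in all 5 mice, and Vegfa runs from −0.57 in mouse 3 to 1.84 in mouse 1.

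Other genes of receptor tyrosine kinase signalling were taken from lists without the members above. Of 20 further receptor tyrosine kinases 6 passed the threshold below 0, 8 passed above 0 and 6 did not pass, with a median of 0.03, against a median of −0.01 and 49.6% past the threshold over all genes and features. Tek was farthest above 0. Ltk, leukocyte receptor tyrosine kinase, was farthest below 0 at −2.92, −2.04, −0.04, −0.48 and −2.65 in mice 1 to 5, with a mean of −1.63 ± 1.30 (limma adjusted p = 0.0194). The list mean of 10 skeletal muscle markers was −3.96, −3.21, −0.09, −1.13 and −3.01, lowest in mouse 1 and highest in mouse 3 like Ltk, and the part of muscle RNA in the Ltk values was not tested.

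Of 11 further growth factor ligands, 3 passed the threshold below 0, 0 passed above 0 and 8 did not pass, which is 27.3% past against 49.6% of all genes and features. Pgf was lowest. Of 15 adaptors 3 passed below 0, 6 passed above 0 and 6 did not pass (60% past). Phospholipase C gamma 2, Plcg2, which is found mostly in blood cells, stood at −0.40 ± 0.18 (limma adjusted p = 0.00403), and the adaptor Crk at 0.85 ± 0.22 (adjusted p = 0.000336). The insulin and IGF receptor substrate Irs1, which couples Igf1r to PI3 kinase, stood above 0 like that receptor at 0.56 ± 0.12 (adjusted p = 0.000382).

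Of 10 feedback inhibitors 1 passed below 0, 4 passed above 0 and 5 did not pass, a share of 50% near the 49.6% of all genes and features. Socs3, a cytokine-induced inhibitor that also acts on receptor signalling, stood at −2.00, −1.46, −1.695, −2.45 and −1.84, far below 0 in every mouse. Its mean was −1.89 ± 0.37 (limma adjusted p = 7.57e-05). Dusp6, the phosphatase that is induced by and switches off ERK, stood at 0.835, 1.21, 1.075, 1.48 and 1.26, above 0 in every mouse, with a mean of 1.17 ± 0.24 (adjusted p = 0.000120). Each call held when the pool stood for 1 control mouse (adjusted p = 0.0248 for Socs3 and 0.0351 for Dusp6). Calls for Tek, Pgf and Htra1 also held, but those for Epgn, Flt1, Flt4, Ltk, Plcg2, Crk, Irs1, Gpc3, Bgn and Pappa did not. By list, 2 of 20 further receptor tyrosine kinases, 2 of 11 further ligands and 0 of 15 adaptors passed so. So did 3 of 10 feedback inhibitors and 2 of 18 co-receptors and release proteins, against 5.09% of all genes and features.

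Of 18 co-receptors and proteins of heparan sulfate and ligand release, 7 passed below 0, 6 passed above 0 and 5 did not pass (72.2% past, against 49.6%). Glypican 3, Gpc3, a heparan sulfate proteoglycan of the cell surface, was farthest above 0 at 2.79, 2.72, 3.185, 1.86 and 0.655, with mouse 5 well below the rest. Its mean was 2.24 ± 1.01 (limma adjusted p = 0.00187). Biglycan, Bgn, a small matrix proteoglycan, was farthest below 0 at −0.73 ± 0.29 (adjusted p = 0.00148). The proteases Htra1 and Pappa, which are known to cleave IGF binding proteins, stood on opposite sides at 1.09 ± 0.12 (adjusted p = 3.2e-05) and −0.27 ± 0.15 (adjusted p = 0.0160).

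**Figure D5:**
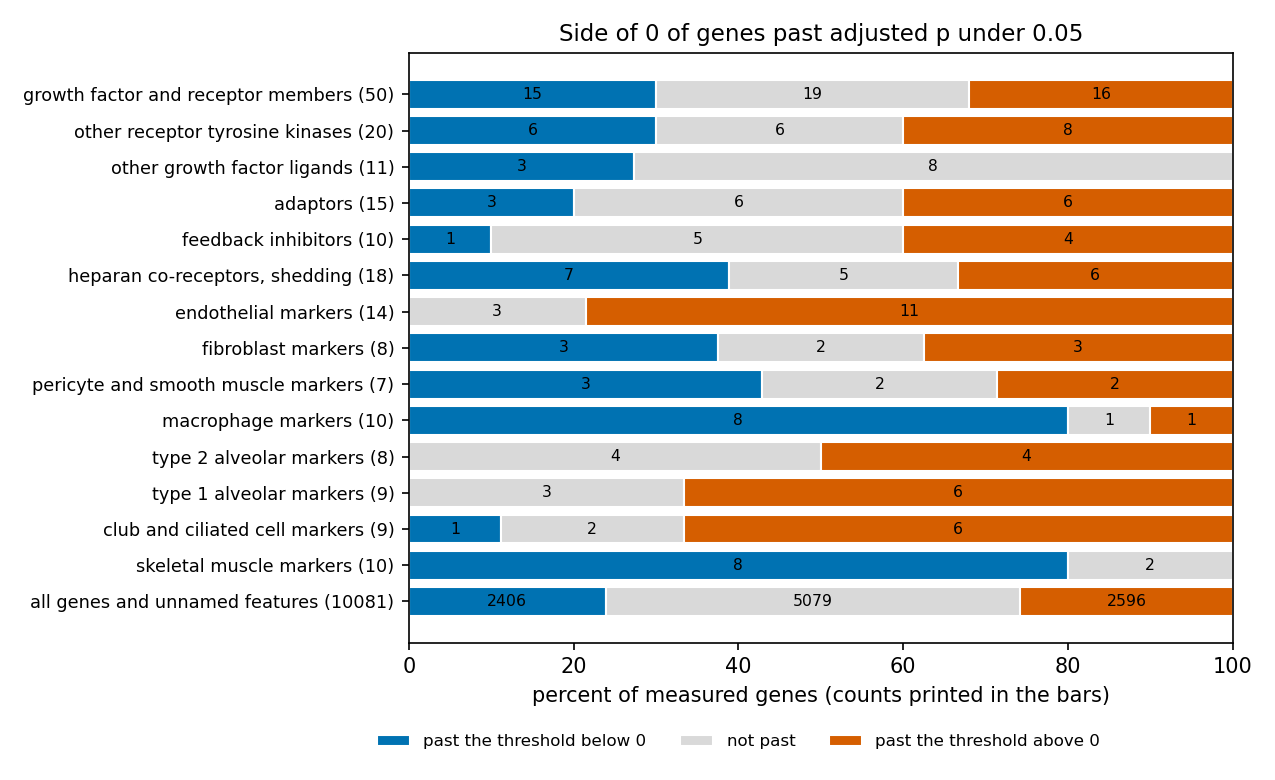
Percent of measured genes past the threshold below 0 (blue), not past (grey) and past it above 0 (orange) for the members, the lists of receptor tyrosine kinase signalling, the cell type marker lists and all genes and unnamed features, with counts in the bars. Past the threshold, the 50 members have 15 below and 16 above 0, endothelial markers 0 of 14 below and 11 above, and macrophage markers 8 of 10 below.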

How the data were processed

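Lung RNA of 5 bleomycin-treated 129svJ mice was measured on 2-colour arrays, each against the same pool of control lung RNA. The authors deposited 1 log ratio per feature and array, read here as log2 ratios. The labels state no log base, dyes, scanner or normalization. Each array was centred on its median, features with values on at least 4 of 5 arrays were kept, and features of 1 symbol were averaged. Symbols came from the platform annotation and were updated through gene identifiers with a RefSeq table (GRCm38.p6) for 14445 features, which changed 0 member symbols.

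Each mean log2 ratio was compared with 0 by limma 3.58.1 under R 4.3.3 (intercept-only model, empirical Bayes, two-sided, Benjamini-Hochberg over all 10081 genes and unnamed features). The procedure was tested on simulated data. For the main test these held no deviation of the shared pool, so they cannot show false calls that the pool makes on every array. The pool counts as fixed, so the spread between control mice is left out. The ratios carry no signal over background. Precision was therefore judged from the number of arrays and the spread between mice. Alternatives were no centring, features on at least 3 or on all 5 arrays, single features, platform symbols, equal array spread, a plain one-sample test, a least difference of 1.2-fold, the pool counted as 1 control mouse and each mouse left out.

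The members and the gene lists were chosen with earlier results of these data known. By the rule for named genes, members past the threshold with a mean of at least 0.5 in size, and the measured ligands or receptors that pair with them, were described array by array. The remaining members were counted, most with their mean. Of some lists, the gene past the threshold farthest from 0 on each side was named, beside receptors or ligands of the members. These were the lists of receptor tyrosine kinase signalling, the macrophage and fibroblast lists, and the alveolar list with the surfactant proteins. In the endothelial, pericyte and smooth muscle, skeletal muscle and other alveolar lists, the farthest genes were not named. Irs1, Htra1, Pappa, Sftpc and Sftpd were chosen after their values were seen.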

Additional observations from a re-analysis of the deposited data

Results flagged for a closer look

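In 7 of 50 members, 1 mouse lay far from the others by Dixon's criterion at the 95% level. Chance alone marks about 1 in 20 groups of normally distributed values. The check was not run over all genes and features, so the count cannot be set beside their share. For Egfl6 mouse 2 stood at 0.242, the others between 0.727 and 0.843. For Erbb4 mouse 4 stood at −0.263, the others between −0.006 and 0.029. For Fgf23 mouse 3 stood at 0.141, the others between 0.019 and 0.020. For Fgf8 mouse 1 stood at −0.041, the others between −0.239 and −0.190. For Fgfrl1 mouse 5 stood at −0.687, the others between −0.279 and −0.146. For Igfbp2 mouse 3 stood at −0.004, the others between 0.256 and 0.284. For Igfbp4 mouse 4 stood at 0.786, the others between 0.213 and 0.357. The distant arrays came from all 5 mice.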

How the results depend on the processing

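No paired analysis was possible because the 5 arrays form 1 group against a common pool. The count of members past the threshold, 31 (15 below and 16 above 0), became 5 (4 and 1) with the pool counted as 1 control mouse, and all genes and features 513 in place of 5002. It became 14 (7 and 7) against a least difference of 1.2-fold, with 1847 of all genes and features. Under the plain one-sample test 22 members passed, with 3866 of all genes and features. Under the 6 other settings that kept all mice 29 to 32 members passed, with 4490 to 5311 of all genes and features. The 29 were counted on features with values on all 5 arrays, where 40 members were measured and 0 of their calls were lost. Without 1 mouse the count of members ranged from 25 to 29, with 10 to 14 below and 14 to 17 above 0. Over all genes and features it then ranged from 4106 to 4616. Of the 31 members, 24 passed whichever mouse was left out. The same count was not made over all genes and features, so it cannot be compared with theirs. The members that changed side when 1 mouse was left out had not passed. Their means ranged from −0.001 to 0.0627 for Fgf11, −0.198 to 0.0765 for Vegfb, −0.14 to 0.28 for Igf2bp1, −0.091 to 0.0063 for Erbb4, −0.085 to 0.24 for Nrgn and −0.134 to 0.0395 for Nrg4. The cause was not tested. The pool is 1 sample, and with 5 arrays the smallest p of an exact test by sign flips is 0.0625.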

Other observations

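Members with too few values to be tested had ratios between −0.384 and 0.361 where they had any. Fgfr4, a receptor known from liver, stood at 0.10, 0.36 and 0.10 in mice 2, 3 and 4. Fgf17, an embryonic ligand, stood at −0.04, −0.15 and −0.02 in mice 2, 4 and 5. Fgf10, the ligand that drives lung budding in the embryo, had a value on 1 array, −0.38 in mouse 4. Angpt1, the main activating ligand of Tek, had a value of −0.20 in mouse 2 only. Pdgfb, the main ligand of Pdgfrb, had a value of 0.10 in mouse 4 only.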
